A study of Homo sapiens with 4 samples.

Results

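COL1A2, COL3A1 and COL5A2 lie at a pair of loci on different chromosomes, and their contacts with the rest of their chromosomes were measured by Hi-C in IMR90 lung fibroblasts. The maps divide the genome into bins of about 200 kb. The members are the 4 bins that overlap the collagen intervals and 10 bins on each side of them, which gives 22 bins on chromosome 7 around COL1A2, 22 bins on chromosome 2 around COL3A1 and COL5A2, and 44 bins in all, out of 13567 bins with usable values in every map (14310 bins on the autosomes and X). The COL1A2 locus was chosen by its OIS minus Grow difference in contact with distant B compartment bins in an earlier analysis of these maps, and the chromosome 2 locus was proposed beside it with results of these maps known. That difference and its percentiles are therefore a description at both loci, and so are the differences that contain the same OIS map, OIS-shA1 minus OIS and the interaction, which a choice for a high OIS value lowers. All 44 bins were kept by the filter on listed pairs.

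The fibrillar collagens are the rope-like proteins of the extracellular matrix and a main secreted product of fibroblasts. COL1A2 encodes the α2 chain of type I collagen, the most abundant collagen of skin, bone and tendon. COL3A1 encodes the chain of type III collagen, which forms fine fibrils in skin, vessel walls and lung, and COL5A2 encodes a chain of type V collagen, which lies inside type I fibrils and helps set their diameter. Chromatin falls into a gene-rich, open A compartment and a gene-poor, condensed B compartment, and bins of one compartment tend to meet bins of the same compartment even far along the chromosome.

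The study asked how HMGA1, a chromatin protein that binds AT-rich DNA, shapes the folding of the genome in oncogene-induced senescence (OIS). The cells of the series were IMR90, an established line of normal human lung fibroblasts, carrying ER:HRAS G12V from the pLNCX2 vector, an oncogenic RAS fusion that 4-hydroxytamoxifen (4OHT) switches on. Grow-shA1 cells carried the shHMGA1 hairpin of the pMSCV miR vector and received no 4OHT, and OIS-shA1 cells carried the same hairpin and received 100 nM 4OHT for 6 days. Grow and OIS are growing and senescent cells without the hairpin, which the laboratory had mapped in a previous study and which match none of the samples given here, so each comparison with and without shA1 also compares 2 data sets and these cannot be told apart. In the study's own experiments the cells without shA1 carried the control backbone of the hairpin vector. HMGA1 levels were not analysed here. Each shA1 map pools 2 replicates, and there was 1 map per condition with no replicate maps, so no test between conditions could be made. The main differences of the gene bins in distal and local contact are described beside the same difference over all kept bins. Splits by distance and by block, and parts of the other splits, are given without such a background and are not read as particular to the loci. The SD given over pairs is a spread between bin pairs of the same maps, not between cultures.

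The 4 maps listed 4032189 to 4631800 bin pairs within chromosomes. A score is the deposited value of a bin pair, corrected for the distance between its bins, and a higher score means more contact than usual at that distance. Its log base was not stated, so scores are given in score units. Contact depth per pair is unknown. Distal pairs are over 2 Mb apart and local pairs are 2 Mb or less apart. A compartment score, computed from each map, is above 0 for A bins and below 0 for B bins, and bins were assigned to A or B once, from the Grow map. Distal B contact is the mean score of a bin with distal B bins, over pairs listed in all 4 maps. A percentile is the percentage of kept bins with a lower value.

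The genes were placed on GRCh37, whose chromosome ends matched those of the deposited hg19 bins. COL1A2 (ENSG00000164692) lies at chr7:94024207-94060539 on the plus strand, wholly within the bin chr7:94000748-94200908, which it shares with CASD1 and with SGCE. The bin before it, chr7:93802205-94000747, holds no protein-coding gene. COL3A1 (ENSG00000168542) lies at chr2:189839099-189877472 on the plus strand, wholly within the bin chr2:189799668-190000168. COL5A2 (ENSG00000204262) lies at chr2:189896624-190090038 on the minus strand and spans 2 bins, with 46.5% of its length, including its start, in chr2:190000169-190199840 and the rest in the COL3A1 bin. The COL3A1 and COL5A2 bins are therefore neighbours, and the COL3A1 bin reports on both genes.

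The bin edges follow HindIII sites, where the enzyme cut the chromatin before ligation, and each edge of the 4 collagen bins carries the site. The edges are shown because they fix which gene belongs to which bin. Each is 30 bases of the plus strand of GRCh37, 5′ to 3′, with the HindIII site in capitals.
COL1A2 locus, edge at chr7:93802190-93802219: gtggaggctggtggAAGCTTcaccactttg
COL1A2 bin, first edge at chr7:94000733-94000762: aagttttctaaaggAAGCTTtggtgttgac
COL1A2 bin, last edge at chr7:94200894-94200923: catgtagtggtagaAAGCTTagggaaattg
COL3A1 bin, first edge at chr2:189799653-189799682: aacaggatcaccatAAGCTTgcataaaaat
COL3A1 and COL5A2 bins, shared edge at chr2:190000154-190000183: aagaaatactgcctAAGCTTgaaaatgaag
COL5A2 bin, last edge at chr2:190199826-190199855: aagctagaatcataAAGCTTctagaagaaa

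The collagen bins were richer in AT than the median bin, to different degrees. The GC content was 36.9% in the COL1A2 bin, 34.6% in the COL3A1 bin and 36.0% in the COL5A2 bin, against a median of 39.7% over the kept bins. For GC the COL1A2 bin was at percentile 22.6, the COL5A2 bin at 13.6 and the COL3A1 bin at 3.67. The COL3A1 bin held 3202 runs of 12 or more A or T per Mb, at percentile 95.4, whereas the COL1A2 bin held 2698 and the median bin held 2063. The number of HindIII sites was 60, 60 and 67 in the COL1A2, COL3A1 and COL5A2 bins, close to the median of 59, so the bins had about the usual number of ends to ligate.

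The collagen bins had different compartment surroundings. The COL1A2 bin lay at a border: its compartment score was 0.108 in Grow, 0.221 in Grow-shA1, 0.0959 in OIS and 0.229 in OIS-shA1, close to 0 in every map. With a component computed per chromosome arm it was -0.0772 in Grow and -0.0930 in OIS, on the B side of 0. On its lower-coordinate side the 2 nearest bins scored 0.836 and 0.843 in Grow, and on its higher-coordinate side the PPP1R9A bin, which holds a neuronal phosphatase subunit gene, was at -1.18. The COL3A1 bin scored 1.20 in Grow, 1.24 in Grow-shA1, 1.13 in OIS and 1.30 in OIS-shA1. The COL5A2 bin scored 1.34, 1.37, 1.19 and 1.34 in the same order, so both chromosome 2 bins stood well inside an A stretch in every map.

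**Figure D1:**
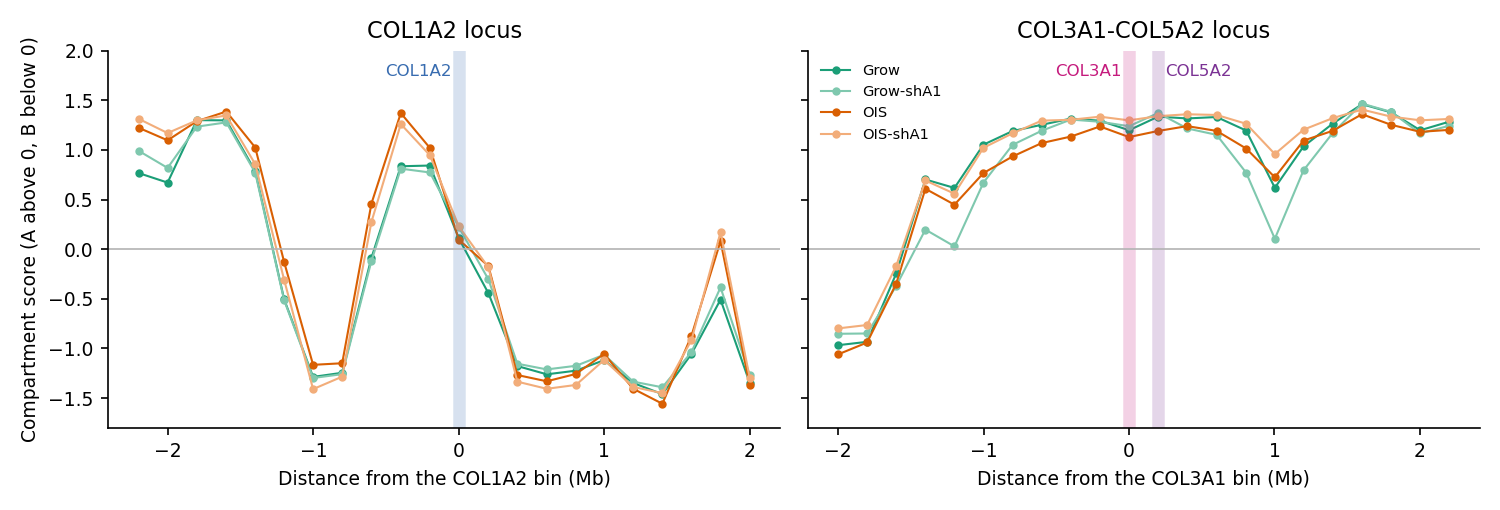
Compartment score (A above 0, B below 0) of the 22 bins of each locus against distance in Mb from the COL1A2 bin (left) or the COL3A1 bin (right), 1 line per map, with shaded bars at the gene bins. COL1A2 sits where the score crosses 0 (0.108 in Grow), and COL3A1 (1.20) and COL5A2 (1.34) sit on an A stretch in which the bin after TFPI (0.0285) and the MSTN bin (0.105) are lowest in Grow-shA1.

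Within the A stretch around COL3A1 and COL5A2, the maps differed most at MSTN and in a bin without a protein-coding gene next to TFPI, and the bins named here and in the other accounts of the flanks were chosen after their values were seen. The bin without a gene, at chr2:188600378-188798904, scored 0.618 in Grow, 0.0285 in Grow-shA1, 0.449 in OIS and 0.559 in OIS-shA1. The bin of TFPI, a coagulation inhibitor, at chr2:188399267-188600377 scored 0.703 in Grow, 0.198 in Grow-shA1, 0.609 in OIS and 0.693 in OIS-shA1. The bin of MSTN, the muscle growth inhibitor myostatin, at chr2:190805307-190999373 scored 0.619, 0.105, 0.725 and 0.959 in that order. In these 3 bins Grow-shA1 was the lowest of the 4 maps. On chromosome 7, the BET1 bin that lies 2 bins before COL1A2 scored 0.836 in Grow, 0.812 in Grow-shA1, 1.37 in OIS and 1.26 in OIS-shA1, higher in both OIS maps than in both Grow maps.

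Contact of the COL1A2 bin with distal B bins was highest in OIS. Its mean score over 340 listed pairs was -0.123 in Grow, -0.188 in Grow-shA1, 0.0760 in OIS and -0.0948 in OIS-shA1. OIS was the only one of the 4 maps in which the mean was above 0. The OIS minus Grow difference, which chose the locus, was 0.199 (SD over pairs 0.596), at percentile 95.6 of the kept bins, whose median was -0.0873. The OIS-shA1 minus OIS difference was -0.171 (SD over pairs 0.648), at percentile 14.6, against a median of -0.0502. Grow-shA1 minus Grow was -0.0651, at percentile 51.4 and next to the median of -0.0675. OIS-shA1 minus Grow-shA1 was 0.0930, and the interaction, which is that difference less OIS minus Grow, was -0.106 (percentile 9.44).

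COL3A1 and COL5A2 had less contact with distal B bins than COL1A2 in every map. The COL3A1 bin, over 185 listed pairs, had a mean of -0.839 in Grow, -0.859 in Grow-shA1, -0.684 in OIS and -0.737 in OIS-shA1. The COL5A2 bin, over 208 listed pairs, had -0.844 in Grow, -0.820 in Grow-shA1, -0.697 in OIS and -0.666 in OIS-shA1. Both bins were higher in the OIS maps than in the Grow maps, with the hairpin and without it. For COL3A1 the OIS minus Grow difference was 0.155 (SD over pairs 0.677, percentile 92.5) and OIS-shA1 minus Grow-shA1 was 0.122 (percentile 85.8). For COL5A2 these were 0.147 (SD over pairs 0.626, percentile 91.6) and 0.154 (percentile 89.8). OIS-shA1 minus OIS was -0.0533 for COL3A1 and 0.0311 for COL5A2, at percentiles 48.9 and 73.3.

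Much of the distal B contact of the chromosome 2 bins was not listed. Of 633 possible pairs of the COL3A1 bin with distal B bins, between 50.4% and 55.0% were listed in a map, and of 635 of the COL5A2 bin between 55.4% and 64.7%. For the COL1A2 bin it was between 89.5% and 96.7% of 448. With unlisted pairs set to 0, the OIS minus Grow differences were 0.145 for COL1A2 (percentile 87.2), 0.0987 for COL3A1 (percentile 79.2) and 0.120 for COL5A2 (percentile 83.3).

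Contact with distal A bins differed by under 0.1 in OIS minus Grow at all 3 genes with the values as deposited. The COL1A2 bin had a mean of -0.0605 in Grow, -0.0746 in Grow-shA1, -0.0514 in OIS and -0.0770 in OIS-shA1 over 219 pairs. The COL3A1 bin had 0.369, 0.413, 0.389 and 0.432 over 365 pairs, and the COL5A2 bin had 0.494, 0.505, 0.447 and 0.475 over 438 pairs. The OIS minus Grow differences were 0.00910, 0.0199 and -0.0476, at percentiles 62.7, 65.4 and 49.3. With scores divided by the SD at the same distance they were -0.0206, -0.124 and -0.303, the last at percentile 13.0, so the size and sign of the distal A differences depended on the scaling.

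**Figure D2:**
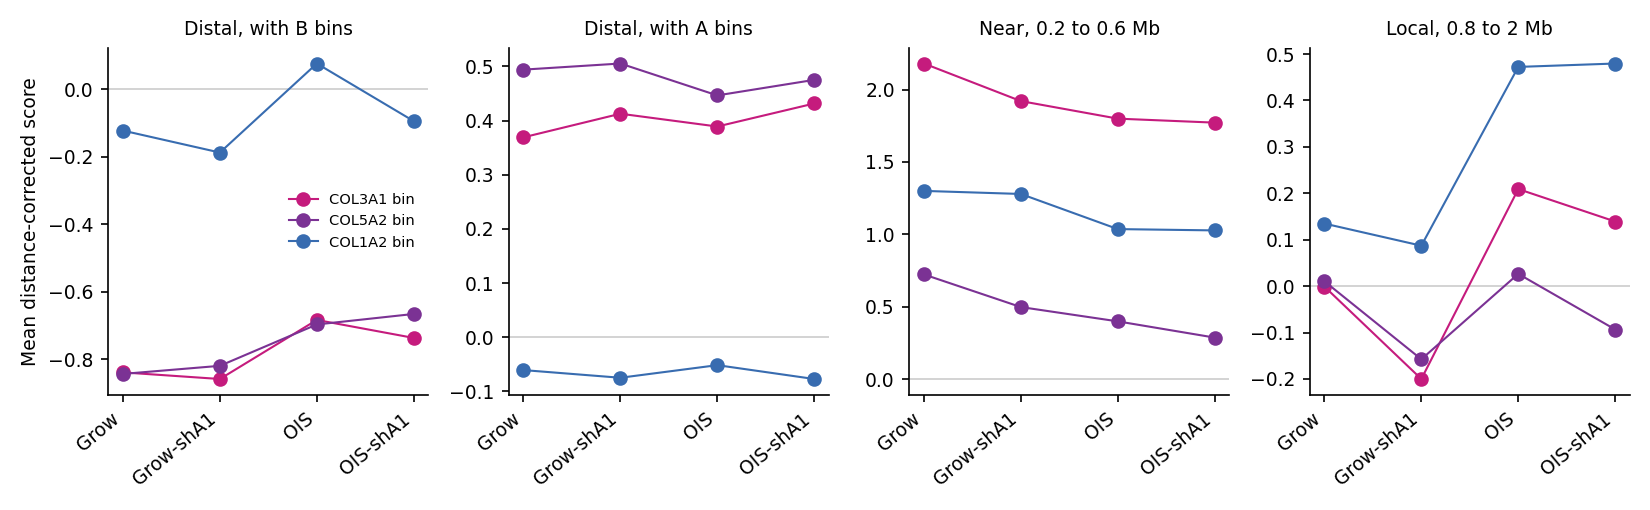
Mean distance-corrected score of the COL1A2, COL3A1 and COL5A2 bins in each map, for distal B pairs, distal A pairs, near pairs at 0.2 to 0.6 Mb and local pairs at 0.8 to 2 Mb; each panel has its own vertical scale and each point is 1 map. Distal B contact of COL1A2 peaked at 0.0760 in OIS, and near contact of COL3A1 was highest in Grow (2.18).

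The flanks were counted by differences past 0.1 score units in either direction. In OIS minus Grow, 4 of the 22 COL1A2 bins were higher by over 0.1 in distal B contact and 9 of the 22 COL3A1-COL5A2 bins were, against 13.8% of all kept bins. Lower by over 0.1 were 4 and 6 bins, against 46.9% of all kept bins. Since the loci were chosen with this difference known, nothing is read from those counts. The higher values next to COL1A2 lay on its B side. The PPP1R9A bins were at 0.185 and 0.160, while the BET1 bin was at -0.227, with a distal A difference of 0.294. The bin of SLC25A13, a mitochondrial carrier gene, at chr7:95798917-96000718 was at -0.197. On chromosome 2 the lower-coordinate bins were higher, with 0.219 and 0.210 at GULP1, an engulfment adaptor gene, and the higher-coordinate bins went from 0.147 at COL5A2 through values near 0 to values below 0 beyond MSTN, with -0.312 at NAB1, a transcriptional corepressor gene.

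In OIS-shA1 minus OIS, 12 of the 22 COL1A2 bins and 8 of the 22 COL3A1-COL5A2 bins were lower by over 0.1, against 33.7% of all kept bins, and 0 of either were higher by that amount, against 13.0%. The COL1A2 bin and the bins on its higher-coordinate side made a continuous run of negative values, from -0.0998 to -0.199. The bins on that side are B bins, and all B bins had a median of -0.0866, with 44.2% lower by over 0.1. In Grow-shA1 minus Grow, 8 and 2 bins were lower by over 0.1, against 33.2% of all kept bins. Higher by over 0.1 were 0 COL1A2 bins and 4 COL3A1-COL5A2 bins, against 3.45%. Those 4 lay around the same places, with 0.155 at TFPI, 0.149 in the bin after it, 0.123 at PMS1, a mismatch repair gene, and 0.163 at MSTN. In OIS-shA1 minus Grow-shA1, 3 and 2 bins were higher by over 0.1 (17.2% of all kept bins), and 6 and 8 were lower (42.1%). Neighbouring bins share nearly all their targets, so the bins of a locus are not independent of each other.

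**Figure D3:**
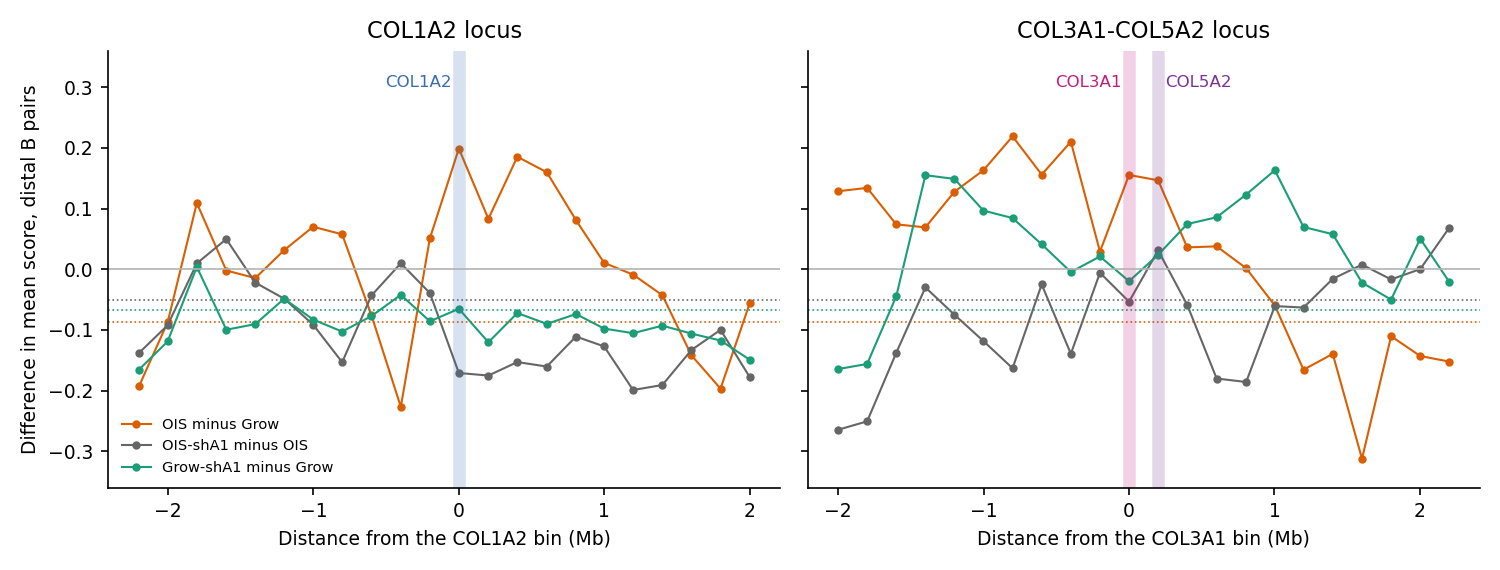
Difference in mean distal B score for 3 comparisons against distance in Mb from the COL1A2 bin (left) or the COL3A1 bin (right), 1 point per bin, with dotted lines at the medians of all kept bins. The OIS minus Grow line peaks at the COL1A2 bin (0.199) and, on chromosome 2, is above 0 on the lower-coordinate side and down to -0.312 on the other side.

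The B bins that the chromosome 2 genes met more often in OIS were not the strongest B bins. B bins were split into the 20% of the bins of the chromosome with the lowest compartment score and the other B bins. With the other B bins, the COL3A1 bin went from -0.650 in Grow to -0.374 in OIS (0.276 over 141 pairs), and the COL5A2 bin from -0.653 to -0.426 (0.226 over 166 pairs). With the strongest B bins, the COL3A1 bin went from -1.45 to -1.68 (-0.230 over 44 pairs), and the COL5A2 bin from -1.60 to -1.77 (-0.169 over 42 pairs). Only 19.0% and 18.2% of the pairs with the strongest B bins were listed in all 4 maps. The same split held with the hairpin: OIS-shA1 minus Grow-shA1 was 0.237 and 0.228 with the other B bins and -0.249 and -0.140 with the strongest. The COL1A2 bin was higher in OIS with both kinds, by 0.179 over 213 pairs with the other B bins and by 0.231 over 127 pairs with the strongest.

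The difference also depended on how far the B bins were. For COL1A2, OIS minus Grow was 0.0674 at 2 to 5 Mb, 0.142 at 5 to 10 Mb, 0.455 at 10 to 20 Mb, 0.312 at 20 to 50 Mb and 0.0146 over 50 Mb. At 10 to 20 Mb the mean score with B bins was 0.108 in Grow, 0.0296 in Grow-shA1, 0.563 in OIS and 0.130 in OIS-shA1, over 33 pairs. The COL1A2 locus was chosen for a high OIS minus Grow, which favours a high OIS, so nothing is read from that order of the maps. For COL3A1 the differences were -0.368 at 2 to 5 Mb, -0.0179 at 5 to 10 Mb, 0.321 at 10 to 20 Mb, 0.311 at 20 to 50 Mb and -0.0219 over 50 Mb. The COL5A2 difference was -0.444 at 2 to 5 Mb and 0.324 at 5 to 10 Mb, where that of COL3A1 was near 0. It was 0.215 for B bins 10 to 20 Mb away, and 0.250 for those 20 to 50 Mb away. Both bins thus had less contact in OIS with the nearest distal B bins and more with those at 10 to 50 Mb. No value over other bins is given for these distance classes, so whether the pattern is particular to the loci is not known.

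Mean contact with A bins across the centromere was lower in OIS, and mean contact with distal bins of the same arm was higher. The median bin was also lower with A bins of the other arm, at -0.0651 on chromosome 7 and -0.0754 on chromosome 2. On its own arm, the COL1A2 bin was higher in OIS than in Grow by 0.285 with distal B bins and by 0.115 with distal A bins, at percentiles 98.9 and 75.1 of the bins of chromosome 7. With A bins of the other arm it was lower, at 0.0651 in Grow and -0.157 in OIS (-0.222, percentile 12.7), and with B bins there it differed by -0.0102. The COL5A2 bin was higher by 0.169 with distal B bins of its own arm (percentile 93.7 of chromosome 2) and, with A bins of the other arm, had 0.437 in Grow and 0.229 in OIS (-0.208, percentile 9.29). For the COL3A1 bin these differences were 0.175 (percentile 93.9) and -0.160 (percentile 20.4). With distal A bins of their own arm, COL3A1 and COL5A2 were higher by 0.0899 and 0.0401 (percentiles 74.5 and 64.8). With the hairpin the other-arm A differences were -0.101 for COL1A2, -0.222 for COL3A1 and -0.197 for COL5A2 (percentiles 30.3, 2.97 and 5.94).

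Blocks of 25 bins, about 5 Mb each, showed where along the chromosome the contacts differed. The COL1A2 bin was higher in OIS than in Grow in 15 of 23 distal blocks with at least 50% of their pairs listed (median 0.182, range -0.392 to 0.665). The largest difference was with chr7:122599354-127600258, 31.0 Mb away, where 84.0% of the bins were B and genes such as GRM8, a glutamate receptor, and POT1, a telomere protein, lie. The mean score there was -0.143 in Grow, -0.177 in Grow-shA1, 0.522 in OIS and 0.153 in OIS-shA1, over 25 pairs. Next was chr7:117602626-122599353, with the receptor phosphatase PTPRZ1 and the signalling ligand WNT16, at 0.392, 0.129, 0.860 and 0.379. The third was chr7:82601939-87598053, a semaphorin-rich block with SEMA3A, SEMA3D and SEMA3E, at 0.110, -0.0506, 0.567 and 0.273. The blocks were picked for a high OIS minus Grow, which favours a high OIS and an OIS-shA1 below it, so nothing is read from the order of the maps.

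The COL1A2 bin was lower in OIS than in Grow in 8 of the 23 blocks, among them every listed block of the short arm from chr7:9999104 to chr7:39997576. The 3 lowest of the 23 are given. Distal blocks with fewer listed pairs were not ranked. Their differences went from -0.686 at chr7:157604186-159138663 (2 pairs) to 0.0969 at chr7:152601823-157604185 (10 pairs), with -0.504 at chr7:39997577-45002905 (12 pairs). With chr7:30002702-34999813, which holds the water channel gene AQP1, the score was 0.204 in Grow, -0.127 in Grow-shA1, -0.188 in OIS and -0.127 in OIS-shA1 over 13 pairs, so Grow alone was above 0. With chr7:97608309-102601070, which holds 121 protein-coding gene starts, it was -0.513, -0.444, -0.794 and -0.701. With chr7:25002697-30002701, which holds the HOXA developmental genes, it was 0.0666, 0.135, -0.151 and -0.123.

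On chromosome 2 the COL3A1 and COL5A2 bins together were higher in OIS than in Grow in 15 of 24 blocks (median 0.0592, range -0.397 to 0.683). The 24 were the distal blocks with at least 50% of their pairs listed. The largest difference was with chr2:158401180-163401587 (at -29.1 Mb from the locus) and mostly A, with 32.0% B bins. It holds FAP, the activation marker protease of fibroblasts, and DPP4, a related protease. The mean score was 0.294 in Grow, 0.318 in Grow-shA1, 0.977 in OIS and 0.663 in OIS-shA1 over 47 pairs. Next were chr2:143396580-148401273, with ZEB2, a repressor of epithelial genes, at 0.411, 0.302, 1.02 and 0.651, and chr2:108401399-113400165, with MERTK, a receptor kinase, at 0.0936, 0.0176, 0.683 and 0.273. These blocks too were picked for a high OIS minus Grow.

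The lowest differences among ranked blocks of chromosome 2 were with 2 towards the end of the long arm and 1 near the short-arm end. Distal blocks with fewer listed pairs were not ranked. Their differences went from -0.544 at chr2:19999746-25000667 (17 pairs) to 0.234 at chr2:138401850-143396579 (16 pairs). With chr2:233403537-238399118, which holds COL6A3, the score was 0.242 in Grow, 0.319 in Grow-shA1, -0.155 in OIS and 0.0439 in OIS-shA1. With chr2:9998848-14999974, which holds the ribonucleotide reductase gene RRM2, it was 0.570, 0.735, 0.197 and 0.369. With chr2:218396659-223398433, which holds the muscle filament gene DES, it was 0.163, 0.0928, -0.126 and 0.168, and OIS alone was below 0.

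**Figure D4:**
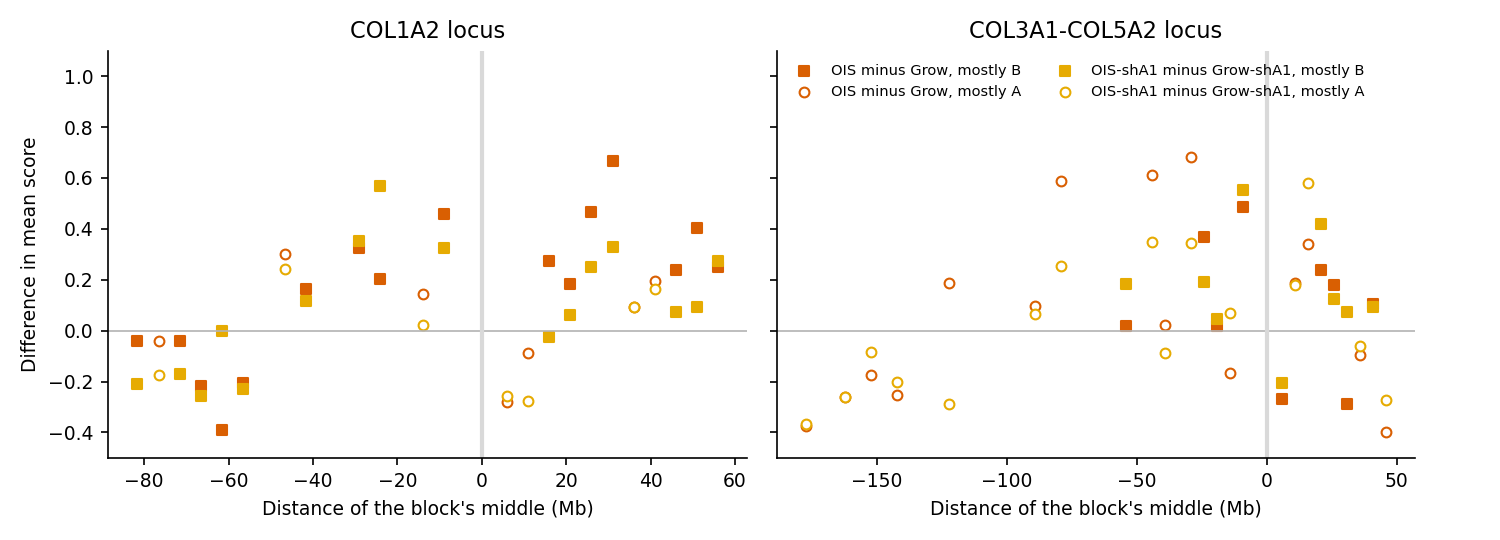
Difference in mean score between a collagen locus and each distal block of 25 bins against the distance of the middle of the block in Mb (negative is lower coordinates), for OIS minus Grow and for OIS-shA1 minus Grow-shA1; filled squares are blocks with at least 50% B bins and open circles the others. The highest blocks reach 0.665 for COL1A2 and 0.683 for COL3A1 and COL5A2 in OIS minus Grow, and 0.570 and 0.581 in OIS-shA1 minus Grow-shA1. The loci were chosen with OIS minus Grow known, which favours high values of it, so these maxima are not compared.

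Close to the genes, contact was lower in OIS. The pair of the COL3A1 bin with itself scored 1.90 in Grow, 1.60 in Grow-shA1, 0.965 in OIS and 1.06 in OIS-shA1. In Grow this was at percentile 99.8 of the kept bins, so contact within the COL3A1 bin was among the highest in the genome. The OIS minus Grow difference was -0.939, at percentile 2.31, against a median of -0.0988. The COL5A2 bin with itself scored 1.61, 1.40, 1.11 and 1.01 (OIS minus Grow -0.507, percentile 17.0), and the COL1A2 bin with itself scored 0.921, 0.968, 0.528 and 0.668 (-0.392, percentile 24.7). Both OIS maps were below both Grow maps at all 3 genes.

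Near pairs, with the bins at 0.2 to 0.6 Mb, were also lower in both OIS maps than in both Grow maps. The mean over the 6 near pairs of the COL3A1 bin was 2.18 in Grow, at percentile 99.98 of the kept bins, then 1.92 in Grow-shA1, 1.80 in OIS and 1.77 in OIS-shA1. For COL1A2 it was 1.30, 1.28, 1.04 and 1.03, and for COL5A2 0.723, 0.497, 0.398 and 0.286. The OIS minus Grow differences of -0.381, -0.264 and -0.324 for COL3A1, COL1A2 and COL5A2 lay at percentiles 24.4, 33.7 and 28.6, against a median of -0.102.

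Further out, at 0.8 to 2 Mb, contact was higher in OIS for COL1A2 and COL3A1. The COL1A2 bin had a mean of 0.135 in Grow, 0.0872 in Grow-shA1, 0.472 in OIS and 0.480 in OIS-shA1 over 14 pairs, and both OIS maps were above both Grow maps. OIS minus Grow was 0.337 (percentile 93.9, median of all kept bins -0.125), and OIS-shA1 minus Grow-shA1 was 0.392 (percentile 97.9). The largest single difference was with the bin 1.20 Mb before it, which holds HEPACAM2 and VPS50, at 0.368 in Grow, 0.278 in Grow-shA1, 1.20 in OIS and 1.16 in OIS-shA1. The COL3A1 bin had -0.000859, -0.20, 0.209 and 0.139, with differences of 0.210 (percentile 86.0) and 0.339 (percentile 96.6). For COL5A2 the difference was 0.0160 (percentile 66.0).

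**Figure D5:**
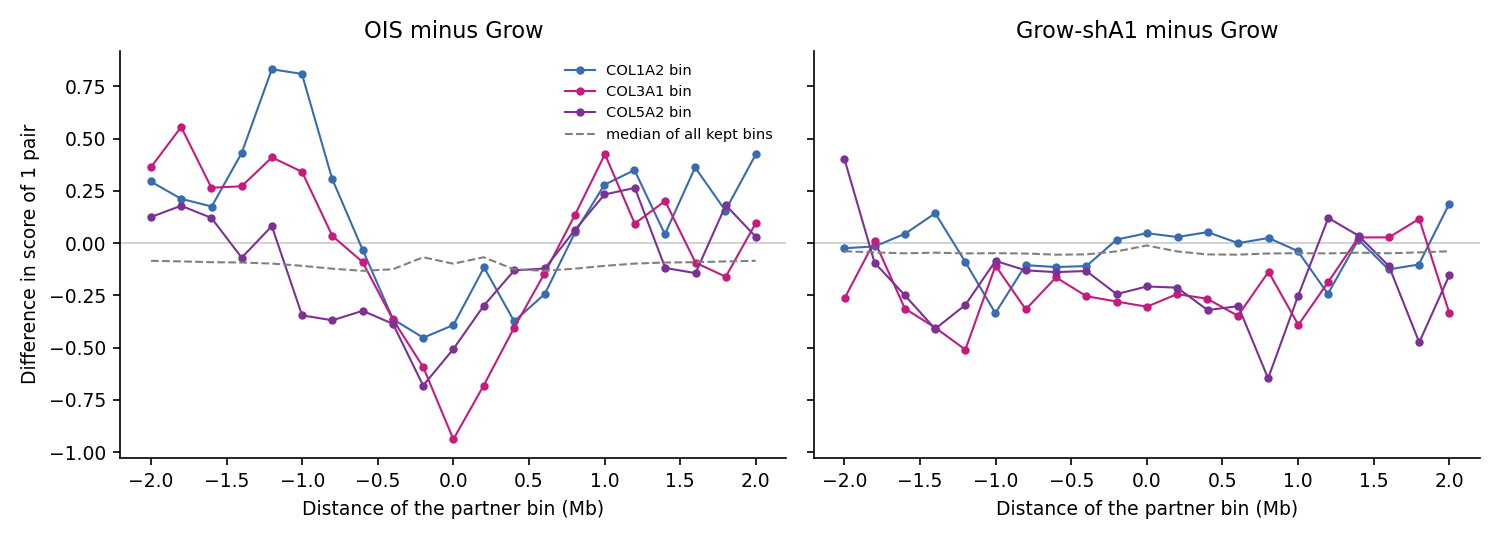
Difference in score of the single pairs of the COL1A2, COL3A1 and COL5A2 bins with the bins within 2 Mb (0 is the bin with itself, negative is lower coordinates), for OIS minus Grow (left) and Grow-shA1 minus Grow (right), with the median of all kept bins dashed. In OIS minus Grow the lines are lowest at the gene bin for COL3A1 (-0.939) and 1 bin before it for COL1A2 (-0.453) and COL5A2 (-0.682); in Grow-shA1 minus Grow the chromosome 2 lines are mostly below the median.

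Averaged over all local pairs, the near and the further differences were of opposite sign for COL1A2 and COL3A1. Local contact of the COL1A2 bin was 0.603 in Grow, 0.550 in Grow-shA1, 0.738 in OIS and 0.771 in OIS-shA1, and the difference OIS minus Grow, 0.135, was -0.105 when only pairs within 1 Mb were taken. In OIS minus Grow, 1 of 22 bins at each locus was higher by over 0.1, against 23.3% of all kept bins, and 6 and 8 were lower, against 51.9%.

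Grow-shA1 had less local contact around COL3A1 and COL5A2 than Grow. Of the 22 bins of the locus, 18 were lower by over 0.1, against 28.9% of all kept bins, and at the COL1A2 locus 1 of 22 was. Chromosome 2 as a whole was lower in this comparison, with 62.8% of its bins lower by over 0.1 and a median of -0.125, against 21.2% and -0.0369 on chromosome 7, so the count is to be read against its chromosome. Local contact of the COL3A1 bin was 0.681 in Grow, 0.470 in Grow-shA1, 0.711 in OIS and 0.658 in OIS-shA1, and of the COL5A2 bin 0.340, 0.120, 0.236 and 0.103. The Grow-shA1 minus Grow differences were -0.211 and -0.220, at percentiles 5.40 and 4.60 of all kept bins and 12.02 and 9.76 of chromosome 2, with SDs over pairs of 0.167 over 19 pairs and 0.181 over 18 pairs. The COL1A2 bin differed by -0.0531, at percentile 48.2. The pair of the COL3A1 bin with itself was lower by 0.305 (percentile 2.65). In OIS-shA1 minus OIS, 16 of the 22 bins of the chromosome 2 locus and 9 at the COL1A2 locus were lower by over 0.1, against 37.2% of all kept bins and 64.1% of the A bins of chromosome 2, and in OIS-shA1 minus Grow-shA1 10 and 9 were, against 47.7%. Each of these comparisons shares a map with another, and Grow-shA1 and Grow come from different data sets.

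The distal pairs that differed most on each chromosome were counted for the gene bins. Of the 1% of distal pairs of chromosome 7 that were lowest in OIS-shA1 minus OIS, 1815 pairs, the COL1A2 bin was in 13, of which 12 were with B bins. The median bin of the chromosome was in 4, and the COL1A2 bin was at percentile 97.7. The choice of the locus for a high OIS minus Grow with distal B bins favours a place in this set. Nothing is therefore read from that count. Of the 1% highest in OIS minus Grow, the COL1A2 bin was in 4 of 1982, equal to the chromosome median of 4 (percentile 47.7). It was in 0 of the 1% lowest, where the median was also 4. The COL3A1 bin was in 19 of the 4450 highest pairs of chromosome 2 in OIS minus Grow, 9 of them with B bins, against a median of 6 (percentile 90.9), and the COL5A2 bin was in 8 (percentile 66.8). In the network of those highest pairs, the core number, the largest k for which a bin lies in a subnetwork where every bin has at least k links, was 6 for COL3A1 and 5 for COL5A2, where the highest on the chromosome was 12. These were at percentiles 79.6 and 75.4 of chromosome 2. COL1A2 had a core number of 3 in that of chromosome 7 (percentile 43.7).

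Pairs with other matrix and secretory genes of the same chromosome were measured as squares of 3 by 3 bins. COL3A1 with FAP scored 0.281 in Grow, 0.310 in Grow-shA1, 0.993 in OIS and 0.60 in OIS-shA1 over 7 pairs. The OIS minus Grow difference of 0.712 was at percentile 96.7 of 735 squares of chromosome 2 at the same distance, and the square of DPP4 overlaps that of FAP. COL3A1 with ITGA4, an integrin subunit gene in a B bin 7.60 Mb away, scored -0.60, -1.14, 0.0791 and -0.134. Its difference of 0.679 was at percentile 97.5 of 962 squares, and that of COL5A2 with ITGA4 was 0.808. COL3A1 with COL6A3, a chain of beaded-filament type VI collagen, was lower in OIS, at 0.825 in Grow, 0.882 in Grow-shA1, 0.339 in OIS and 0.147 in OIS-shA1 (-0.487, percentile 6.41 of 437 squares). COL3A1 with FN1, which encodes fibronectin, scored 0.677, 0.775, 0.70 and 0.587 and differed by 0.0238 between OIS and Grow. These values depended on the size of the square. The FN1 difference was -0.844 for the single pair and -0.0149 over 5 by 5 bins. COL3A1 with FAP, ITGA4 and COL6A3 kept its sign, at 1.32, 0.546 and -1.32 as single pairs and 0.666, 0.658 and -0.541 over 5 by 5 bins.

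COL1A2 had smaller differences with its listed partners. With HGF, a growth factor gene 12.6 Mb away, it scored -0.0174 in Grow, -0.0439 in Grow-shA1, 0.356 in OIS and 0.0678 in OIS-shA1 (0.374, percentile 89.3 of 512 squares). With LAMB1, a laminin chain gene, it scored 0.601, 0.483, 0.780 and 0.593. With HOXA9, on the other arm, it scored 0.286, 0.289, -0.183 and -0.0136 over 6 pairs. In OIS minus Grow, COL1A2 was higher with 6 of its 12 partner bins over 2 Mb away (median 0.0294), COL3A1 with 8 of 13 (median 0.10) and COL5A2 with 7 of 11 (median 0.246), where partners that share a bin count once.

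Other collagen genes and collagen processing genes were read in the same comparison. Of 8 other fibrillar collagen genes 7 had a kept bin, 0 of them were higher by over 0.1 in distal B contact and 2 were lower, against 13.8% and 46.9% of all kept bins (median 0.0195). COL1A1, which encodes the partner chain of COL1A2 in type I collagen, was at 0.0551 (percentile 79.9), with 0.172 in OIS-shA1 minus OIS where COL1A2 had -0.171. COL2A1 of cartilage was the highest, at 0.0577, COL27A1 was at 0.0313, COL11A1 at 0.0195 and COL24A1 at -0.0626. COL11A2 was at -0.151 and COL5A3, a type V chain, was the lowest at -0.328. Of 6 bins of other fibroblast collagens, 1 was higher and 2 were lower, from COL15A1 at 0.143 to COL14A1 at -0.380. Of 15 bins of collagen processing genes, 0 were higher and 8 were lower, a share of lower bins near that of all kept bins, from PPIB, a collagen-folding isomerase, at 0.0156 to LOXL2, a crosslinking oxidase, at -0.322. COL1A2 was chosen for its high value and the chromosome 2 locus with results known, so the lists do not show that the members differ from collagen genes at large.

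The bins most like each collagen bin in 8 values, distal contact with A and with B bins in the 4 maps, were sought among bins of other chromosomes with a protein-coding gene start. For COL1A2 the nearest of 6742 was the ODAD2 bin at chr10:28200652-28402133, with a root mean square difference of 0.0482 against a median of 0.415. Next were the GABRA4 and GABRB1 bin on chromosome 4 (0.0562) and the MYCBP2 bin on chromosome 13 (0.0602). For COL3A1 the nearest of 6553 were the bins of APPL2 on chromosome 12 (0.0509), EVI5 on chromosome 1 (0.0548) and SEMA3C on chromosome 7 (0.0592). For COL5A2 they were PRDM1 on chromosome 6 (0.0367), HLTF on chromosome 3 (0.0400) and again APPL2 (0.0443). Distal B contact in OIS minus Grow was 0.0748, 0.268 and 0.119 in the bins matched to COL1A2, in the order named. It was 0.124, 0.0575 and 0.165 in those matched to COL3A1, and 0.0349, 0.0442 and 0.124 in those matched to COL5A2. The match was on levels, and the COL1A2, COL3A1 and COL5A2 bins themselves had 0.199, 0.155 and 0.147.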

How the data were processed

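The authors processed the Hi-C reads with HiC-Pro on hg19, per the submitters' processing notes, with pooled replicates and bins of about 200 kb set to HindIII sites. The deposited values are scores of bin pairs within a chromosome, normalized and corrected for distance by the authors, and the deposited bin list gives the coordinates. The 2 columns of Grow and OIS belong to no sample of the series.

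Bins were kept with at least 50% of the pairs of their chromosome listed in each of the 4 maps. The compartment score was the first principal component of the correlation matrix of a chromosome, oriented by protein-coding gene starts. Mean scores used pairs listed in all 4 maps, with at least 10 distal or 5 local pairs. Python 3.11.15, numpy 2.4.6, pandas 2.3.3, networkx 3.6.1 and matplotlib 3.10.9 were used, and the scripts were tested on simulated data. With 1 map per condition no test was made. Named were the collagen genes, the 3 highest and 3 lowest blocks per locus, listed partners, the fibrillar genes with the ends of the other lists, and the 3 most similar bins. The blocks were ranked among distal ones with at least 50% of their pairs listed. The members and lists were chosen with earlier results of these data known, and the splits by B strength and by near and further pairs were chosen after their values were seen.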

Additional observations from a re-analysis of the deposited data

How the results depend on the processing

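Up to 14 alternative settings were tried on each value. For contact of the 3 gene bins with distal B bins, 170 values moved by less than the spread used as the yardstick, 6 moved further and 4 that were past 0.1 turned sign. Another 10 values, within 0.1 of 0 as deposited, also turned sign, so no direction is read from those. With compartments from the 20% of bins at either end, only the strongest B bins are targets by construction. OIS minus Grow was then -0.230 for COL3A1 and -0.169 for COL5A2, against a median of -0.169 over all bins with a value. OIS-shA1 minus Grow-shA1 was -0.249 and -0.140, against a median of -0.113. For COL3A1 that setting also gave -0.183 in OIS-shA1 minus OIS and -0.164 in Grow-shA1 minus Grow. Dividing by the SD at the same distance gave 0.309 for COL3A1 and 0.304 for COL5A2 in OIS minus Grow. The median over pairs gave 0.0445 for COL3A1 in OIS-shA1 minus OIS, and common centring gave -0.00749 for COL1A2 in Grow-shA1 minus Grow. The cause of these was not tested.

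Of the other values, 421 stayed within the yardstick, 86 moved and 8, past 0.1 or compartment scores, turned sign. Among values within 0.1 of 0, 42 of distal A contact and 5 of local contact also turned sign. Local contact within 1 Mb gave -0.105 for COL1A2 in OIS minus Grow, and -0.0767 for COL1A2 and -0.0993 for COL3A1 in OIS-shA1 minus Grow-shA1, which leaves out the further pairs. Within 5 Mb the last was -0.0921. The COL3A1 local interaction was -0.00980 as a median over pairs, and common centring gave 0.0394 for COL5A2 local contact in OIS minus Grow. A component per arm gave COL1A2 compartment scores of -0.0772 in Grow and -0.0930 in OIS. No paired analysis was possible because each shA1 map pools its 2 replicates and the Grow and OIS maps belong to no sample, and for the same reason no replicate could be left out. Contact depth per pair is unknown, so no counting error could be given.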
